A study of Mus musculus with 6 samples.

Results

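A set of 10 genes that act in spermatogonia or in their niche were followed through the regions where nucleosomes were called in mouse sperm. They were Kit, Kitl, Dazl, Nanos2, Nanos3, Zbtb16, Gfra1, Sohlh1, Sohlh2 and Dnd1, taken by symbol from 21887 protein-coding genes on chromosomes 1 to 19, X and Y. All 10 were found among the genes that RefSeq annotates on GRCm38.p6 (mm10). A peak within 1 kb of either annotated end of a gene is called an end peak here, and one further inside a body peak, and both were read from every library.

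The sperm came from epididymis and vas deferens, and their chromatin was cut with micrococcal nuclease (MNase), which spares DNA held in nucleosomes. The 4 wild-type libraries (WT) were from C57BL6 mice. The other 2 libraries were from mice with K49A, a change of a single amino acid in protamine 1, one of the proteins that take the place of histones in the sperm nucleus. All 6 libraries had the same MNase treatment. The submitters call the libraries of a genotype biological replicates. Age, the number of animals per library and how the mutation was made were not stated in the labels used, so the spread between libraries may be partly technical. Each library was bulk sperm, so a nucleosome kept in few sperm and a weakly held one cannot be told apart.

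Spermatogonia are the mitotic germ cells of the testis, and a few of them, the spermatogonial stem cells, renew themselves through life. Sertoli cells, the somatic cells that surround them, supply GDNF and Kit ligand. GDNF is received by Ret with its co-receptor Gfra1 and keeps stem cells in their undifferentiated state, while Kit ligand acts on Kit as spermatogonia begin to differentiate. The genes are thus used many divisions before a sperm exists, and mature sperm are largely silent in transcription. Kitl is a gene of the niche and not of germ cells, so the heading of germline stem cell genes fits it only by its receptor. Peak lists hold no expression values, and the cell type of the libraries could not be checked through them.

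The promoters that the results turn on are shown here from RefSeq (GRCm38.p6), which listed a promoter window of 300 bases (250 before and 50 after a transcript start) for 8 of the 10 genes. Bases before the outermost annotated start are printed 5′ to 3′ on the gene's own strand, with every CpG in capitals. Kit (chr5:75574737-75574986, plus strand) and Kitl (chr10:100015571-100015614, plus strand, only the 44 bases before its outermost start) stand for genes with a peak over the start in all 4 WT libraries. Dazl (chr17:50293621-50293870, minus strand) and Sohlh1 (chr2:25847249-25847498, minus strand) stand for genes called in 2 WT libraries. Sohlh2 (chr3:55181794-55182043, plus strand) and Nanos2 (chr7:18987274-18987523, plus strand) stand for genes called in none.
Kit: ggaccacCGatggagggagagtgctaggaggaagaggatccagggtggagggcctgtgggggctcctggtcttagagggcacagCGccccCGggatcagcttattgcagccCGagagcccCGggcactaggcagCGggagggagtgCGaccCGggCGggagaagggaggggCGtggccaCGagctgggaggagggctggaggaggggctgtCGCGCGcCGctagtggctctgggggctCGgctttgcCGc
Kitl: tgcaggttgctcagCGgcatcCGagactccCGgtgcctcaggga
Dazl: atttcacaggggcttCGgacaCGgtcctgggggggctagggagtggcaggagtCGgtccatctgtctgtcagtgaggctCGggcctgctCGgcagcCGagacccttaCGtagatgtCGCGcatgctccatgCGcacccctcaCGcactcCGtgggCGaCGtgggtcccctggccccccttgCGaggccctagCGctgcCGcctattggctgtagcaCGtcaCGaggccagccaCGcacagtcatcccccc
Sohlh1: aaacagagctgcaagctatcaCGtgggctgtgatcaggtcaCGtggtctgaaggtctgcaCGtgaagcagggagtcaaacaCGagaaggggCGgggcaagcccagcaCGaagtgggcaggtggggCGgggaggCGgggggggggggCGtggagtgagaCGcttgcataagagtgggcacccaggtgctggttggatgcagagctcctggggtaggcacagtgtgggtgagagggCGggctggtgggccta
Sohlh2: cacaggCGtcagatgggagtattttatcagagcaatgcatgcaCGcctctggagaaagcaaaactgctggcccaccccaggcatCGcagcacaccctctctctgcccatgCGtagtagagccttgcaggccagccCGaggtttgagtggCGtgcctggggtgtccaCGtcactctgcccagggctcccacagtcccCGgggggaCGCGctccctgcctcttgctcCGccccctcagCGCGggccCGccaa
Nanos2: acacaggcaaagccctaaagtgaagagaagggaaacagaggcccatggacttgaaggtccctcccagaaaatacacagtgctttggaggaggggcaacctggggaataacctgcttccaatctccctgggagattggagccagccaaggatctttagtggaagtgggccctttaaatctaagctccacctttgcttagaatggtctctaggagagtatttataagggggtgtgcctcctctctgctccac

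In the printed stretches Kit had 17 CpG, Dazl 20, Sohlh2 14, Sohlh1 11 and Nanos2 0. The Sohlh1 window held the E-box CACGTG 3 times, seen above as caCGtg, and none of the other 7 windows held it. The same hexamer, which reads alike on both strands, was present at least once in 7.90% of 17492 promoter windows of protein-coding genes and at least 3 times in 0.114% of them. The other hexamer counted, GGGCGG on either strand, was in 46.3% of these windows. It occurred 3 times each in Sohlh1 and Kitl and at most 1 time in each other window of the set. Neither hexamer was among the planned comparisons. E-boxes are bound by basic helix-loop-helix proteins, the class that Sohlh1 and Sohlh2 belong to. Binding at this window was not tested. None of the Sohlh1 window lay inside a peak in any library.

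In at least 1 WT library, 6 of the 10 genes had an end peak, and none had one in K49A. Kit, Kitl, Zbtb16 and Gfra1 were called at an end in all 4 WT libraries, Dazl in WT 2 and WT 4, and Sohlh1 in WT 2 and WT 3. Nanos2, Nanos3, Sohlh2 and Dnd1 had no peak at an end or in the body in any of the 6 libraries. Among all protein-coding genes 59.8% had an end peak in at least 1 WT library, 21.8% in every WT and no K49A library, and 40.1% in no library, so the 6, 4 and 4 of 10 here are to be read against those shares. With 10 genes, the counts are near these shares and mark nothing particular to them. Per library, 4, 6, 5 and 5 of the 10 genes were called in WT 1 to 4, where 28.8, 43.0, 46.3 and 49.9% of all genes were called.

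**Figure D1:**
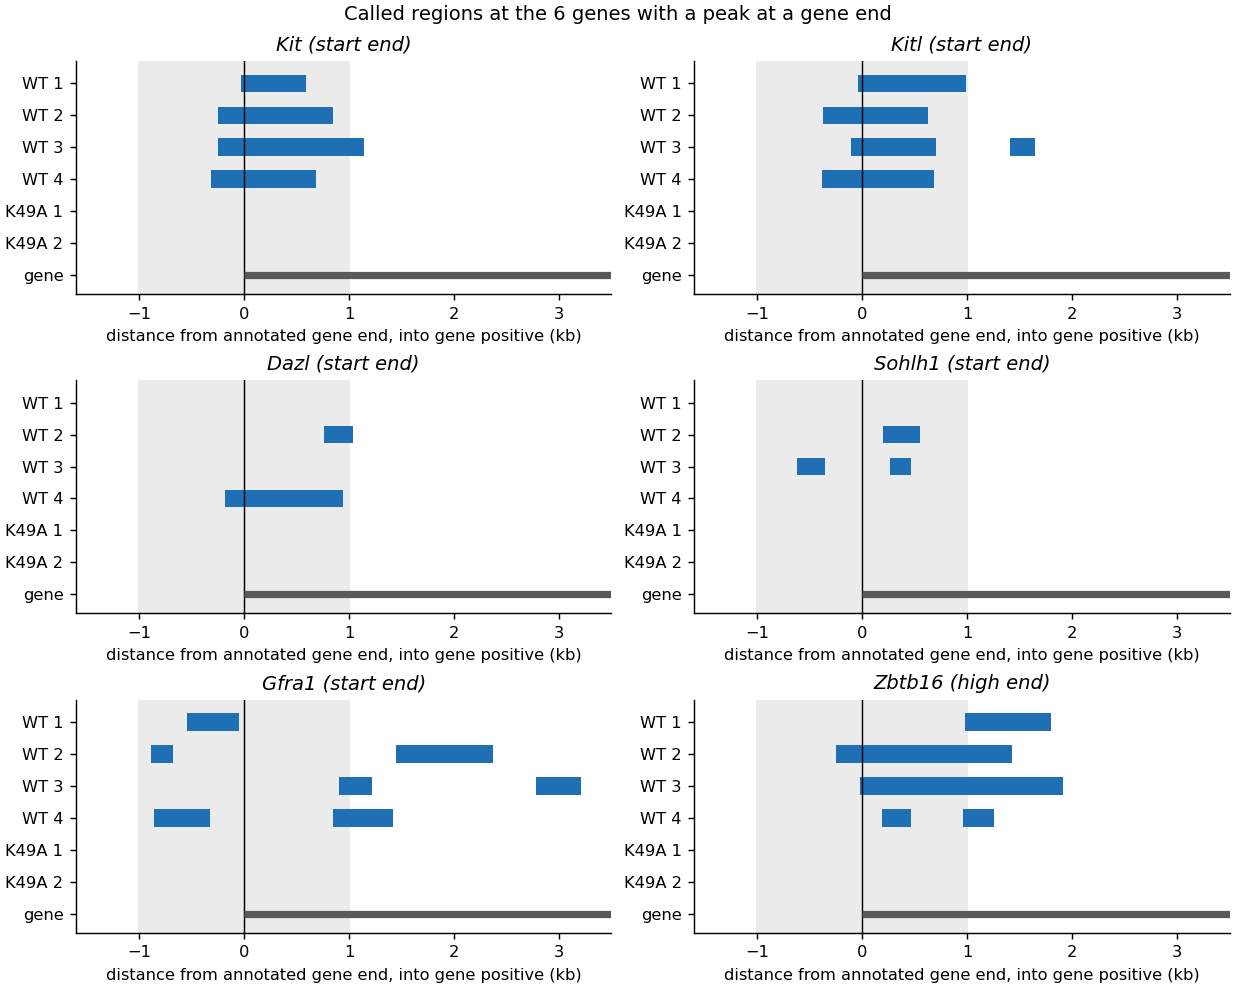
Called regions (bars) in the 4 WT (blue) and 2 K49A libraries at the 6 genes with an end peak, by distance in kb from the annotated end, positive into the gene; shading marks 1 kb either side. At Kit and Kitl all 4 WT bars cross the start, at Gfra1 the bars lie on both sides of it, and no K49A library has a bar.

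Kit encodes the receptor tyrosine kinase for stem cell factor and lies on chromosome 5 from 75574987 to 75656722. Its peak ran from 75574957 to 75575578 in WT 1, from 75574738 to 75575834 in WT 2, from 75574744 to 75576128 in WT 3 and from 75574671 to 75575670 in WT 4. The widths were 622, 1097, 1385 and 1000 bp. All 4 peaks crossed the annotated start, and 622 bp were called in every WT library, from 75574957 to 75575578. The authors' fold enrichment over background, their own value for each peak, was 3.03, 3.29, 2.98 and 2.53 in WT 1 to 4, or 2.96 ± 0.317 (SD, n = 4). Of the 300-base promoter window 80, 299, 293 and 300 bases were inside the peak in WT 1 to 4. The WT 1 peak thus began only 30 bp before the start, whereas the others reached at least 243 bp upstream. Kit had no peak in the rest of its 81.7 kb body.

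Kitl encodes the ligand of Kit, made by Sertoli cells as a membrane-bound and a soluble form, and lies on chromosome 10 from 100015615 to 100100416. Its peak ran from 100015575 to 100016600 in WT 1, from 100015244 to 100016236 in WT 2, from 100015510 to 100016314 in WT 3 and from 100015228 to 100016294 in WT 4. The widths were 1026, 993, 805 and 1067 bp, and 662 bp were called in every WT library. Among the 4 genes called in every WT library, its called length varied least between libraries. The authors' fold was 2.98, 2.98, 2.66 and 3.00 in WT 1 to 4, or 2.90 ± 0.164 (SD, n = 4), with WT 3 below the other 3. RefSeq's transcript start used for the promoter window lies 206 bp inside the gene, and at least 296 of the 300 window bases were inside the peak in every WT library. A further peak of 240 bp lay in the body in WT 3 alone, from 100017023 to 100017262.

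Receptor and ligand thus had a region of like position and fold over the start in wild-type sperm, and neither had a peak nearby in K49A. Among all protein-coding genes 21.8% had an end peak in every WT and no K49A library. The median fold of all end peaks was 3.25, 2.96, 2.99 and 2.97 in WT 1 to 4. The likeness is therefore not particular to this pair. The nearest K49A peaks to Kit were 1768 kb away in K49A 1 and 72.2 kb in K49A 2. Those nearest to Kitl were 6543 and 10920 kb away. All 8 end peaks of Kit and Kitl were wider than the median end peak in their own list, which was 490, 687, 686 and 588 bp in WT 1 to 4.

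Gfra1, the GDNF co-receptor, lies on chromosome 19 from 58235581 to 58455946 and is read from the minus strand. It was called at its start end in all 4 WT libraries, but not at the same place. The peaks at the end ran from 58455999 to 58456487 in WT 1, from 58456626 to 58456832 in WT 2, from 58454723 to 58455037 in WT 3, and from 58454530 to 58455099 and from 58456271 to 58456806 in WT 4. The peaks of WT 1 and WT 2 lay outside the gene and that of WT 3 inside it, WT 4 had one on each side, and no base was called in all 4 or even in 3 WT libraries. The authors' fold of the strongest of these peaks in each library was 2.59, 2.44, 2.29 and 2.42, or 2.44 ± 0.121 (SD, n = 4). This was the lowest mean among the 6 genes, and none of the 5 peaks exceeded the median fold of end peaks in its list. None of them overlapped the RefSeq promoter window, whose transcript start is 548 bp inside the annotated end. The peaks outside the gene were also at an end of the lncRNA gene Gm41876, which begins 203 bp beyond Gfra1.

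Gfra1, at 220 kb the longest of the 10 genes, also had the most peaks in a gene body, 6 of the 9 found. Body peaks were not set against gene length. WT 1, WT 2 and WT 3 had 1 each and WT 4 had 3, and their widths were 200 to 921 bp. The WT 2 peak, from 58453575 to 58454495, and the WT 3 peak, from 58452732 to 58453163, lay within 3 kb of the transcript start. In WT 4 a peak was also at an end of the gene Gm46650 and another at an end of the lncRNA gene Gm10007, both of which lie within Gfra1. With bodies added, 4 of the 10 genes were called in every WT and no K49A library, against 28.0% of all genes.

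Zbtb16 encodes the zinc finger repressor PLZF, which stem cells need for self-renewal, and lies on chromosome 9 from 48651797 to 48836225. Its strand was not in the sequence table. All its peaks at an end were at the high end. They ran from 48834432 to 48835245 in WT 1, from 48834799 to 48836471 in WT 2, from 48834315 to 48836245 in WT 3, and from 48834970 to 48835269 and from 48835766 to 48836032 in WT 4. The widths were 814, 1673 and 1931 bp in WT 1 to 3, and 300 and 267 bp in WT 4. WT 2 and WT 3 had a single broad region over the end, WT 4 had 2 short ones inside the gene, and the WT 1 peak reached into the 1 kb window by only 21 bp. A stretch of 276 bp, from 48834970 to 48835245, was called in all 4. The authors' fold of the strongest peak was 2.88, 3.00, 2.75 and 2.76, or 2.85 ± 0.117 (SD, n = 4).

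At the low end of Zbtb16 no peak fell within 1 kb, but 3 WT libraries had one just beyond. It ran from 48649914 to 48650325 in WT 1, from 48650084 to 48650577 in WT 2 and from 48649600 to 48650162 in WT 3. The authors' fold was 3.53, 3.04 and 2.66. In WT 1 and WT 2 this outside peak had a higher fold than the peak at the high end (2.88 and 3.00), and in WT 3 a lower one (2.75). WT 4 had none there and had instead 2 body peaks, of 200 and 270 bp.

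Sohlh1 and Sohlh2 encode the basic helix-loop-helix factors that drive spermatogonial differentiation. Sohlh1 lies on chromosome 2 from 25842995 to 25847248 on the minus strand. It was called from 25846700 to 25847048 in WT 2, with a fold of 3.51, and from 25846784 to 25846983 and from 25847600 to 25847871 in WT 3, each with a fold of 2.72. These regions lay 200 to 548 bp inside the gene in WT 2, and 265 to 464 bp inside and 352 to 623 bp outside in WT 3, so the start itself was not covered. The WT 2 peak stood at the 91.4th percentile of its list by −log10 q, the highest of the 23 end peaks. WT 1 and WT 4 had no peak within 26.9 and 12.6 kb of the gene. Sohlh2, on chromosome 3 from 55182044 to 55209957, had none within 32.4 kb in any WT library.

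Dazl encodes an RNA-binding protein that germ cells need from their earliest stages, and lies on chromosome 17 from 50279393 to 50293620 on the minus strand. It was called in 2 WT libraries that differed in extent. In WT 4 the peak ran from 50292678 to 50293800 over the start, with a width of 1123 bp, a fold of 3.66 and a −log10 p of 7.33, the highest fold and −log10 p of the 23 peaks. In WT 2 it ran from 50292582 to 50292854, 766 to 1038 bp inside the gene, with a width of 273 bp and a fold of 2.83. In WT 1 and WT 3 the nearest peak was 69.1 and 69.0 kb away.

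The other genes of RNA-binding proteins had no peak. Nanos2, which keeps male stem cells undifferentiated, lies on chromosome 7 from 18987524 to 18988962, and the nearest peak was 23.2, 11.8, 11.6 and 3.01 kb away in WT 1 to 4. Nanos3, which primordial germ cells need to survive, lies on chromosome 8 from 84173733 to 84176552, and the nearest peak was 7.09, 9.92, 15.6 and 7.15 kb away. Dnd1, another survival factor of primordial germ cells, lies on chromosome 18 from 36763671 to 36766214, and the nearest peak was 37.8, 16.8, 18.3 and 17.0 kb away. Dnd1 overlaps Wdr55 by 38 bp and lies 314 bp from Hars. A gene without a peak in these lists is one without a call at the authors' limit, and does not show that no nucleosome was there.

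All 18 end peaks in the 5 called genes with a known strand (Kit, Kitl, Dazl, Gfra1 and Sohlh1) were at the start end and none at the finish. The 18 are the same 5 genes seen in several libraries and are not independent. The share of end peaks at the start over all genes was not counted, so this marks nothing particular to these genes. The 23 end peaks had widths of 200 to 1931 bp (median 622 bp) and folds of 2.25 to 3.66 (median 2.76). Only 6 of them exceeded the median fold of all end peaks in their list, which was 3.25, 2.96, 2.99 and 2.97 in WT 1 to 4, and 12 exceeded its median width. In fold they were thus mostly in the lower part of the end peaks, while in width they were near the middle. The 23 are likewise 6 genes seen in several libraries and are not independent. None of the 5 peaks of Gfra1 exceeded the median fold.

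In the comparison of genotypes, called length within 1 kb of the gene ends was 0 bp in both K49A libraries for all 10 genes. At Kit the WT libraries had 622, 1097, 1244 and 1000 bp, or 991 ± 266 bp (SD, n = 4). At Kitl they had 1026, 993, 805 and 1067 bp, or 973 ± 116 bp (SD, n = 4). At both genes every WT library was above K49A, and the spread between WT libraries was small beside the WT mean. The 0 bp in K49A is the absence of a call and not a measured signal. At Zbtb16 they had 21, 1247, 1021 and 312 bp, or 650 ± 578 bp (SD, n = 4). At Gfra1 they had 489, 207, 92 and 690 bp, or 370 ± 271 bp (SD, n = 4). These values also did not overlap those of K49A, but at both genes the lowest WT library came close to 0. For these 4 genes the exact permutation test over 6 libraries gave a two-sided p of 0.13, the smallest that 4 against 2 libraries allow, and an adjusted p of 0.605 over all genes.

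At Dazl the WT libraries had 0, 235, 0 and 1123 bp, and at Sohlh1 0, 349, 472 and 0 bp. The groups overlapped at both, with an exact permutation two-sided p of 0.8 for each (adjusted p over all genes = 1). The remaining 4 genes were at 0 bp throughout. Over all protein-coding genes 22.0% had a longer called length in every WT than in both K49A libraries, which the 4 of 10 here are set beside, and 0.0183% had the reverse. Of all genes, only 0.626% had an end peak in at least 1 K49A library (0.429 and 0.334% in K49A 1 and 2), so a count of 0 of 10 is near the background and is not a result about these genes.

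**Figure D2:**
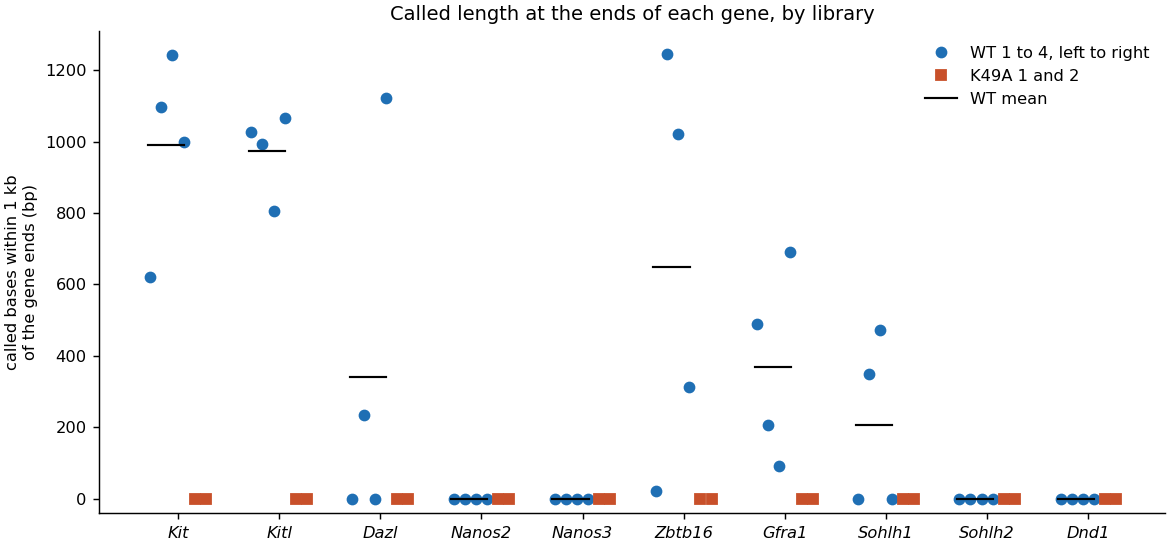
Called bases within 1 kb of the gene ends (bp) for each of the 10 genes, with 1 point per library and a line at the WT mean. The WT points of Kit and Kitl lie between 622 and 1244 bp, those of Zbtb16 spread from 21 to 1247 bp, and every K49A point is at 0 bp.

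In −log10 q all 6 lists ended alike, at 1.00 to 1.04. In −log10 p they did not, and this touches the comparison directly. The weakest peak had a −log10 p of 3.32 to 3.75 in the WT lists, and of 4.73 in K49A 1 and 4.55 in K49A 2. The 23 end peaks had a −log10 p of 3.68 to 7.33 (median 4.72). Of these, 13 were at or past the K49A 2 limit and 11 at or past the K49A 1 limit, so 12 had a lower −log10 p than any peak in the K49A 1 list. All 5 peaks of Gfra1 were below both limits.

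With a −log10 p of at least 5 asked of every list, 7 of the 23 peaks were left. Kit then had a peak in WT 2, Kitl in WT 2 and WT 4, Zbtb16 in WT 2 and WT 4, Dazl in WT 4 and Sohlh1 in WT 2. That is 5 of 10 genes in at least 1 WT library, against 44.7% of all genes, and 0 of 10 in all 4 WT libraries, against 7.18% of all genes. K49A had none of the 10, as before, since a stricter limit can only remove calls. No edge of a peak can be compared with K49A, and the part that the list limits play in the difference between genotypes was not tested.

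**Figure D3:**
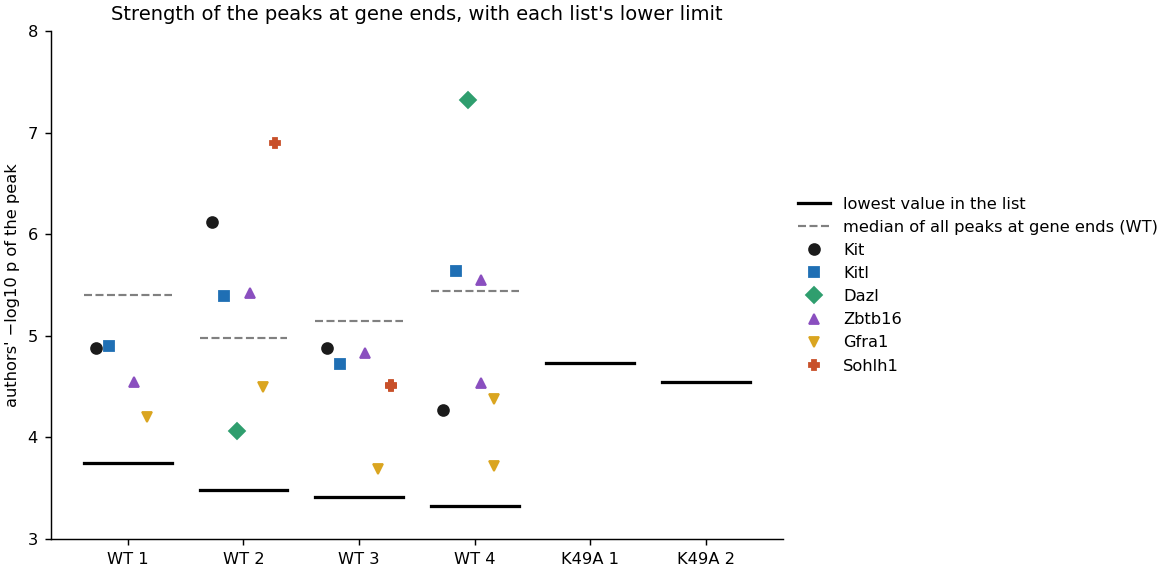
The authors' −log10 p of each of the 23 end peaks, by library and gene, with the lowest value of each list (black) and the median of all end peaks in the WT lists (dashed). Of the 23 points, 12 lie below the K49A 1 limit of 4.73, and the highest is Dazl in WT 4 at 7.33.

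The called and uncalled genes also differed in features that the choice of genes did not use. The number of CpG in the 300-base promoter window was 28 in Kitl, 28 in Dazl, 20 in Kit, 17 in Sohlh2, 14 in Sohlh1, 12 in Gfra1, 3 in Nanos3 and 0 in Nanos2, with a median of 13 over 17492 windows. The observed to expected ratio of CpG was 0.794 in Kitl, 0.795 in Dazl, 0.621 in Kit, 0.545 in Sohlh2, 0.549 in Gfra1, 0.525 in Sohlh1, 0.131 in Nanos3 and 0 in Nanos2, beside a median of 0.576. The 2 Nanos genes were thus at the low end and were not called, whereas Sohlh2 had more CpG than Sohlh1 and Gfra1 and was not called either. Over all genes, an end peak in every WT and no K49A library was found for 2.24% of windows with 0 to 3 CpG, 12.6% with 4 to 13, 25.5% with 14 to 24 and 47.1% with 25 to 65.

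Gene length differed as well. The 4 genes called in all 4 WT libraries were the longest, at 81.7 kb (Kit), 84.8 kb (Kitl), 184 kb (Zbtb16) and 220 kb (Gfra1). The others measured 27.9 kb (Sohlh2), 14.2 kb (Dazl), 4.25 kb (Sohlh1), 2.82 kb (Nanos3), 2.54 kb (Dnd1) and 1.44 kb (Nanos2). Among these the uncalled Sohlh2 was longer than Dazl and Sohlh1, which were called in some WT libraries. Over all genes the share with an end peak in every WT and no K49A library was 39.5% for genes of 80 kb and over, 30.6% for 30 to 80 kb, 18.4% for 5 to 30 kb and 9.24% for those under 5 kb. These splits were chosen after the values of the genes were seen, and the part of CpG or length in the calls was not tested.

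**Figure D4:**
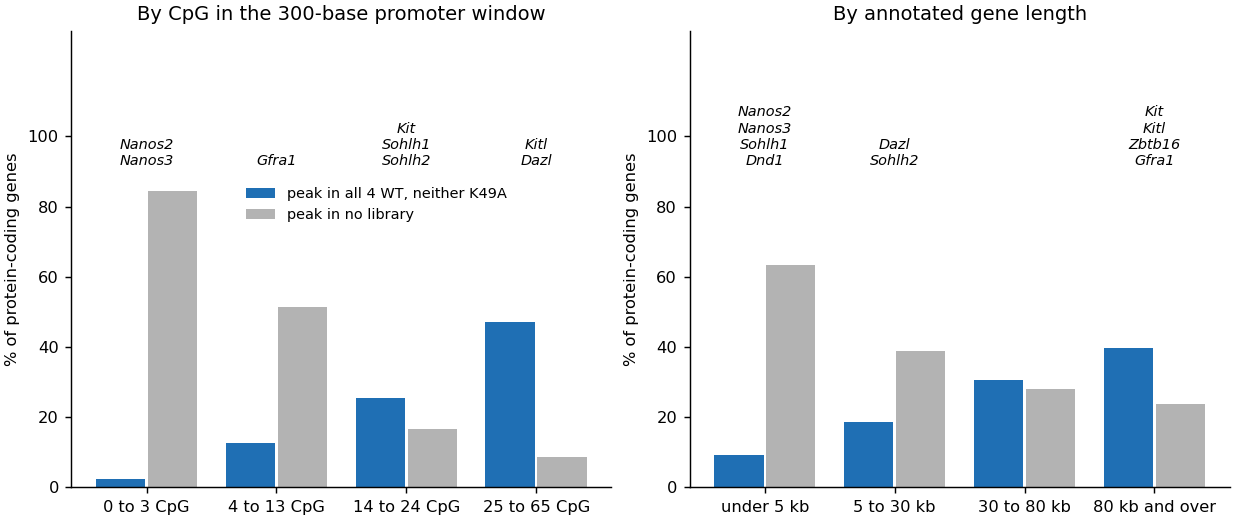
Share of protein-coding genes (%) with an end peak in every WT and no K49A library (blue) or in no library (grey), split by CpG in the promoter window (left) and by gene length (right), with the genes of each class named above. The blue share rises from 2.24% to 47.1% across CpG classes and from 9.24% to 39.5% across length classes.

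A wider list of 30 other genes of spermatogonia and the niche was read in the same way. Of these, 10 had an end peak in every WT and no K49A library (33.3%, beside the 21.8% of all genes), 5 had none in any library (40.1% of all genes had none), and 0 had one in K49A, where 0.626% of all genes had one. In WT 1 to 4 the number called was 16, 18, 20 and 25 of 30, beside 28.8, 43.0, 46.3 and 49.9% of all genes. Among the 10 were Ret, the signalling partner of Gfra1, with a fold of 2.79 ± 0.179, and Foxo1, a transcription factor of stem cell maintenance, with 2.99 ± 0.280 (SD, n = 4 each). Ddx4, a germ cell RNA helicase, had 2.78 ± 0.493, and Rarg, a retinoic acid receptor of spermatogonia, 2.99 ± 0.509 (SD, n = 4 each). Pum2, which encodes an RNA-binding partner of Nanos proteins, had a fold of 3.28 ± 0.448 (SD, n = 4). Fgf2, Cxcr4, T and Upp1 were also among the 10, and Stra8, Bcl6b, Ccnd2, Csf1r and Tdrd1 were the 5 with no peak. Gdnf, the ligand of Ret and Gfra1, was called in 2 of 4 WT libraries. Gdnf and the 5 without a peak were named after their values were seen.

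Markers of other cells that could be present were counted as well, although a peak is no sign of expression. Of 12 genes of epididymal epithelium, 1, 3, 2 and 1 were called in WT 1 to 4, below the 28.8 to 49.9% of all genes in each library, and only Defb42 was called in all 4 (8.33%, beside 21.8% of all genes). Of 10 leukocyte genes, 4, 5, 3 and 2 were called, and Cd3d and C1qb in all 4 (20%). Of 8 Sertoli cell genes, 1, 4, 3 and 5 were called, and Sox9 in all 4 (12.5%). None of these genes had an end peak in K49A, which is near the 0.626% of all genes, and their part in the results was not tested.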

How the data were processed

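Sperm MNase-seq libraries (4 WT, 2 K49A, grouped by sample title) were analysed from the authors' deposited lists of broad peaks, 1 per library. FastQC, BWA, Picard, SAMtools and MACS2 and the build mm10 are named in the submitters' processing notes; versions, settings and any input control: not given in the sources used here. The deposited lists give a fold enrichment as a ratio, a −log10 p, a −log10 q and a whole-number score for each peak, all the authors' own; the score was not used. Read depth is unknown.

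The lists held 11313, 20458, 22237 and 27903 peaks in WT 1 to 4 and 700 and 1017 in K49A. A peak overlapping a window of 1 kb either side of a gene end by at least 1 bp counted as at that end. Called length was tested as log2(bp + 100) by exact permutation of the 6 libraries, two-sided, with Benjamini-Hochberg adjustment over 21887 genes, in Python 3.11.15, and the code was tested on simulated data. The strongest peak is the one with the highest −log10 q. All 10 genes were named; of the wider list, those called in all 4 WT or in any K49A library, apart from 1 that is not reported here. Genes, lists and tests were chosen with earlier results of these data known. Alternatives were other windows, limits, overlaps and list lengths, and leaving out each library.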

Additional observations from a re-analysis of the deposited data

Results flagged for a closer look

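Among the 4 WT libraries, Kitl in WT 3 stood apart: the authors' fold of its peak at the start was 2.66, where the other 3 libraries had 2.98, 2.98 and 3.00, and the gap was 0.939 of the whole range, past Dixon's critical value for 4 values. In all, 10 such groups of 4 values were examined and 1 was past the limit, and chance marks about 1 group in 20.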

How the results depend on the processing

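The count of genes with a peak at a gene end in all 4 WT and neither K49A library, 4 as reported, fell to 2 (Kit and Kitl) with windows of 500 bp and likewise to 2 when the midpoint of the peak had to lie in the window. It was 0 at a −log10 p of at least 5, 0 at 6, and 0 with every list cut to 700 peaks. The same 3 settings gave 0 when gene bodies were added. The count in at least 1 WT library, 6 as reported, was 3 at a −log10 p of at least 6 (Kit, Dazl and Sohlh1) and 0 with 700 peaks per list. Fewer peaks per list lower these counts by construction. The other 40 alternative counts, among them those that left out 1 library, stayed within 1.5 times of the reported value. The count in K49A was 0 under every alternative counted. Only the wider window of 2 kb could have raised it, as every other setting could only keep or remove K49A calls. Leaving out any 1 library gave 4 and 6 each time. Each gene was called in 0, 2 or 4 WT libraries and in no K49A library. Leaving out 1 library thus could not change a count, and those counts do not test stability. With the annotated start only, 3 and 5 of the genes with a known strand were called. Apart from the end-peak counts at a −log10 p of at least 5, no share over all genes stands beside these alternative counts. Whether they moved otherwise than the background was not tested.

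Replicate numbers in the titles do not state a shared animal or day, and the numbers in the names of the deposited lists pair the libraries differently, so which were prepared together is unclear. As a replicate block by title (K49A 1 with WT 1, K49A 2 with WT 2), the log2(bp + 100) difference of K49A minus WT was -3.22 at Kit, -3.47 at Kitl, -0.87 at Dazl, -2.01 at Zbtb16, -2.09 at Gfra1 and -1.08 at Sohlh1. A replicate block added after seeing the data put WT 4 in place of WT 2, as the names of the lists number them. With that block the difference was -3.16, -3.52, -1.81, -1.16, -2.77 and 0. Without a block it was -3.41, -3.42, -1.34, -2.39, -2.02 and -1.17. With all lists limited to a −log10 p of 5 or more it shrank to -0.90 at Kit, -1.75 at Kitl, -0.90 at Dazl, -1.41 at Zbtb16 and -0.54 at Sohlh1, and was 0 at Gfra1. With 10 bp added in place of 100 it was -6.60 at Kit and -6.61 at Kitl, so its size depends on the added length, since K49A was at 0. Of the alternative values of called length, 64 kept their direction, 2 became 0 and none reversed. With K49A at 0 bp at these genes, no value could reverse, and leaving out a K49A library could not change a value. All 26 alternative mean folds stayed within 1 SD. Leaving out 1 library cannot move these means by 1 SD, so those values do not test stability. The mean over all end peaks could differ only at genes with more than 1 end peak in a list. Without read counts, a weak signal in K49A under its list limit was not detectable here.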
